A study of Mus musculus with 41 samples.

Results

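Hippocampal arrays at the top and at the bottom of a myelin ranking were set against each other, 10 high-score and 10 low-score arrays out of 41 in the series. The arrays were selected on measured values: each of 40 arrays (all but medium sample 9) received a score, the mean log2 level of the myelin genes Mog, Mag, Mal, Mobp, Cldn11 and Opalin, and the 10 highest and the 10 lowest scores formed the ends. The ends are therefore not groups that the study assigned, and no treatment, genotype or age separates them. All mice were male C57BL/6J animals, 10 weeks old when behavioural testing began. They passed through 5 cognitive tests up to week 38, and hippocampal RNA was taken 1 month later, with 1 array per mouse. By 2 ranking systems, 5 mice were classed as high, 12 as medium and 8 as low in cognition. Another 14 were ranked inconsistently and 2 had incomplete behavioural data. One label of inconsistent sample 2 calls it consistently medium, and it was kept as inconsistent. The labels do not give the dissection borders or a processing date.

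Myelin is the multilayered membrane that oligodendrocytes wrap around axons to speed conduction. It is built from lipids such as galactosylceramide and from a small set of abundant proteins, and its genes are switched on together when oligodendrocyte precursors mature. In the hippocampus the bordering fibre tracts, the alveus and the fimbria, are rich in myelin, and the fimbria lies against the choroid plexus of the lateral ventricle, the epithelium that makes cerebrospinal fluid.

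The score ran between 9.48 and 9.71 in the high-score arrays (median 9.56), against 9.12 to 9.31 in the low-score arrays (median 9.26). The scale is log2(intensity + 16) after quantile normalization, and the mean gap between the ends was 0.31. The upper border was narrow: the last array inside was medium replicate 6 at 9.4754 and the first outside was inconsistent replicate 7 at 9.4747. At the lower border the last array inside was high replicate 5 at 9.3087 and the first outside was low replicate 8 at 9.3153. The 20 middle arrays filled the space between, and the ranking had no break at either border.

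**Figure D1:**
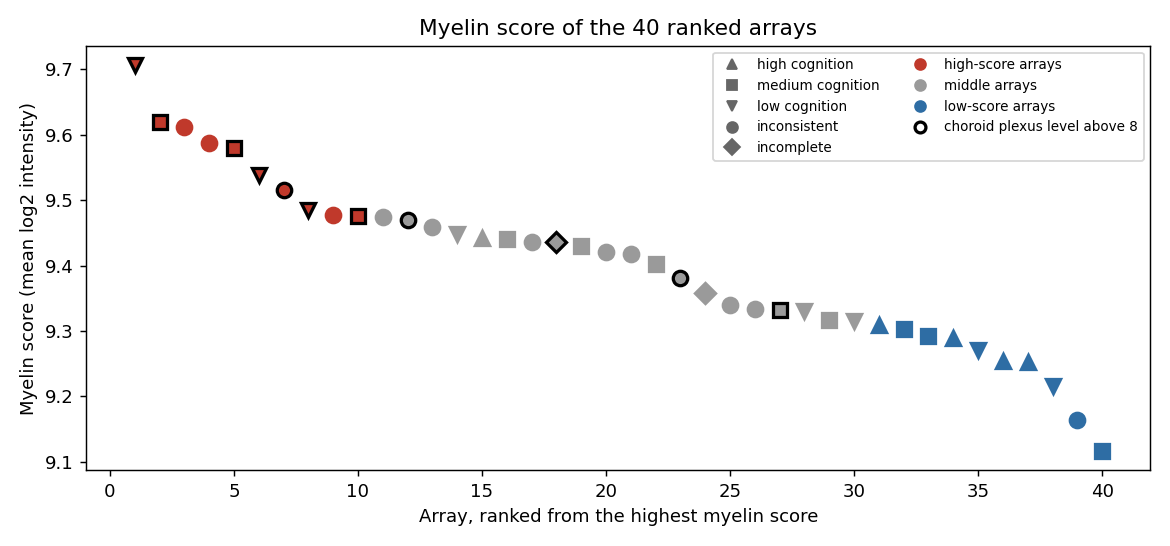
Myelin score (mean log2 intensity of 6 genes) of the 40 ranked arrays, 1 point per array, from the highest score at the left. Colours mark the 10 high-score, 20 middle and 10 low-score arrays, shapes the cognition class, and black edges a choroid plexus level above 8. Of the high-score arrays 7 carry a black edge, and of the low-score arrays none.

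The 6 genes did not contribute equally. Opalin, a small transmembrane glycoprotein of mature oligodendrocytes, was at 7.99 to 8.55 in the high-score arrays (median 8.45), against 7.34 to 7.94 in the low-score arrays (median 7.72). It was the score gene whose ranges did not overlap, and its mean difference of 0.71 made up 37.8% of the gap in the score. Mag, an adhesion protein of the innermost myelin layer, was at 8.89 to 9.33 in the high-score arrays (median 9.12), against 8.68 to 8.93 in the low-score arrays (median 8.81) in the low-score arrays. Mobp, a basic protein of compact myelin, was at 11.76 to 12.14 in the high-score arrays (median 11.89), against 11.55 to 11.80 in the low-score arrays (median 11.62). Mag and Mobp differed by 0.29 and 0.25, and in each a few arrays of the ends overlapped. Mog, an immunoglobulin-like protein of the outer sheath, differed by 0.23, Mal, a lipid raft protein, by 0.21 and Cldn11, the tight junction claudin of myelin, by 0.19. Cldn11 overlapped most, at 8.83 to 9.17 in the high-score arrays, against 8.58 to 9.22 in the low-score arrays. These differences follow from the way the arrays were chosen and were not tested.

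**Figure D2:**
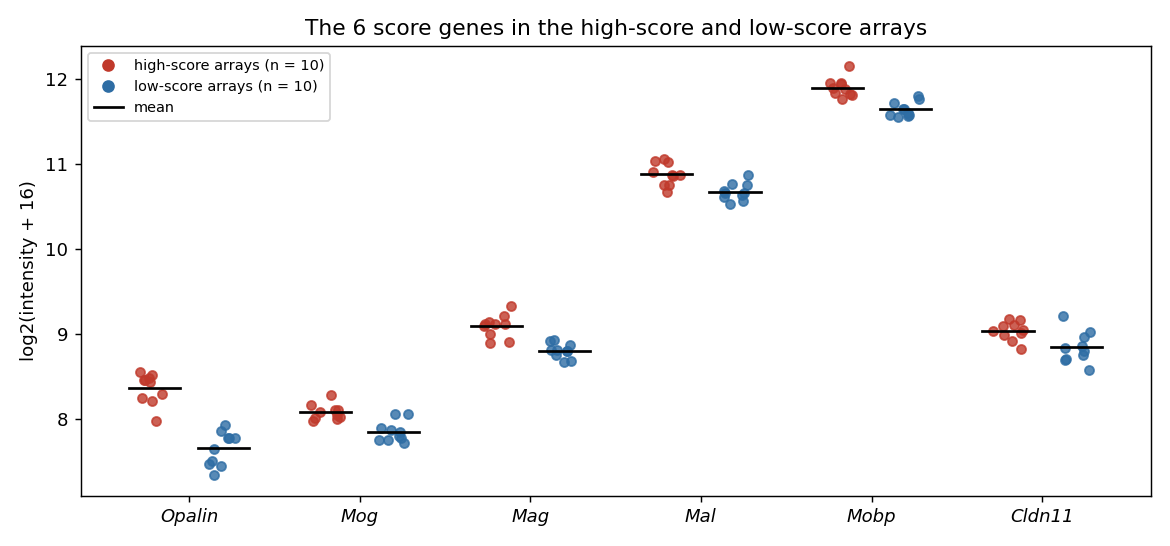
Level, log2(intensity + 16), of the 6 score genes in the 10 high-score arrays (left in each pair) and the 10 low-score arrays (right). Points are arrays and black lines are means. Opalin shows the widest gap, with a mean difference of 0.71.

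Promoter sequences are shown for 3 genes: Opalin because it carried the largest share of the score, Mog as another score gene, and Tmem88b as a gene outside the score whose ranges did not overlap between the ends. The sequences come from RefSeq (build GRCm38.p6), run 5′ to 3′ on the gene's strand over the 300 bases around the start site, and lie at chr19:41077064-41077363 (minus strand), chr17:37023349-37023648 (minus strand) and chr4:155785825-155786124 (minus strand). Capitals mark the SOX core motifs ACAAAG and ACAATG and the MYRF motif CTGGCAC, each searched on both strands. SOX10 and MYRF are transcription factors that drive myelin genes.
Opalin: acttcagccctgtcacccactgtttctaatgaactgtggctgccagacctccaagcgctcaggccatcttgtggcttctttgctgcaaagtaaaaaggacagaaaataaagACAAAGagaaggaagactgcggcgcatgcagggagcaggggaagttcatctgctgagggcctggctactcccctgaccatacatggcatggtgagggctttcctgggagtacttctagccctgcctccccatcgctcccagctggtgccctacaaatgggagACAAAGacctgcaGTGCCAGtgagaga
Mog: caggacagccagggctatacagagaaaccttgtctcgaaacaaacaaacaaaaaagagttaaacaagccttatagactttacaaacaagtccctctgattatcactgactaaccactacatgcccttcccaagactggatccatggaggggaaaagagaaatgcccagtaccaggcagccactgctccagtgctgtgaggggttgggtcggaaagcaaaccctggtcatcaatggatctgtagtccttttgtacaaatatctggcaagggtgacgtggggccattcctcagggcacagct
Tmem88b: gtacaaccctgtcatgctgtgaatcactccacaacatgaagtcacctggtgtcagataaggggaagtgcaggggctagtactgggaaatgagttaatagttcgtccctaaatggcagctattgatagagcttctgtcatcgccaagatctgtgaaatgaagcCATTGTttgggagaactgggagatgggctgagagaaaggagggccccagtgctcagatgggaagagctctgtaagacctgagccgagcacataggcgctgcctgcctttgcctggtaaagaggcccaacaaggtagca
The Opalin window held ACAAAG at positions -139 and 24 and the reverse strand form of CTGGCAC at position 37. The Tmem88b window held the reverse strand form of ACAATG at position -88, and the Mog window held none of these letters. Among 27025 promoters, 18.7% held ACAAAG, 12.8% held ACAATG and 5% held CTGGCAC. Of 29 oligodendrocyte-list genes called higher below, 22 had a promoter in the table, and 5 of them held ACAAAG, 2 held ACAATG and 3 held CTGGCAC. A match is a run of letters and says nothing of binding.

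Across 22509 probe sets outside the score genes, 489 (2.17%) were higher and 460 (2.04%) lower in the high-score arrays, by limma with Benjamini-Hochberg adjustment at 0.05. With each gene at its brightest probe set, 297 of 11212 genes (2.65%) were higher and 269 (2.4%) lower, the median difference was -0.0040 and 48.2% of genes lay above 0. Because the arrays were selected on 6 transcripts, a call says that another transcript moved with the score among these 20 arrays. In bulk tissue, fewer cells of a type and less RNA per cell cannot be told apart. The share of higher calls depended on the scaling: 161 were higher and 9 lower without normalization between arrays, and 298 and 165 with arrays centred on their medians. The counts depended on single arrays. Without low-cognition replicate 7 they were 305 higher and 279 lower, without medium replicate 11 they were 310 and 292, and the lower count was 303 without high replicate 1 and 288 without inconsistent replicate 14. They moved more with Opalin left out of the score. When the score was made from the other 5 genes, 7 of the 10 high-score and 6 of the 10 low-score arrays were chosen again, and 5 probe sets were called higher and 0 lower (0.0222%), with 2103 at an unadjusted p under 0.05. In that ranking, which did not use Opalin, Opalin itself differed by 0.34 (limma adjusted p 0.383). Of the 949 probe sets called with the full score, 947 had the same sign there. The 2 rankings share most of their arrays, so this is not an independent check.

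A second feature separated the ends. The mean level of 10 choroid plexus markers was 6.65 to 9.74 in the high-score arrays (median 9.41), against 5.99 to 7.06 in the low-score arrays (median 6.72). The arrays fell on either side of a gap between 7.47 and 8.49. Above it were 7 of 10 high-score, 4 of 20 middle and 0 of 10 low-score arrays. The 3 high-score arrays below it, inconsistent replicates 1, 9 and 11, were at 6.65, 6.69 and 6.81, inside the range of the low-score arrays. Some gene lists and single genes are therefore also given from 3 other fits. The first takes the choroid plexus level as a covariate. The second leaves out the choroid-bright arrays (3 high-score against 10 low-score arrays). All of those 3 come from inconsistently ranked mice, as does 1 of the 10, so class and score cannot be told apart there. The third is a slope on the score over the 29 choroid-dim arrays, scaled to the gap between the ends. These fits called 11 (0.0489%), 0 (0%) and 29 (0.129%) probe sets of 22509. At an unadjusted p under 0.05 they held 2398, 2369 and 3097, against 4497 in the comparison of the ends.

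**Figure D3:**
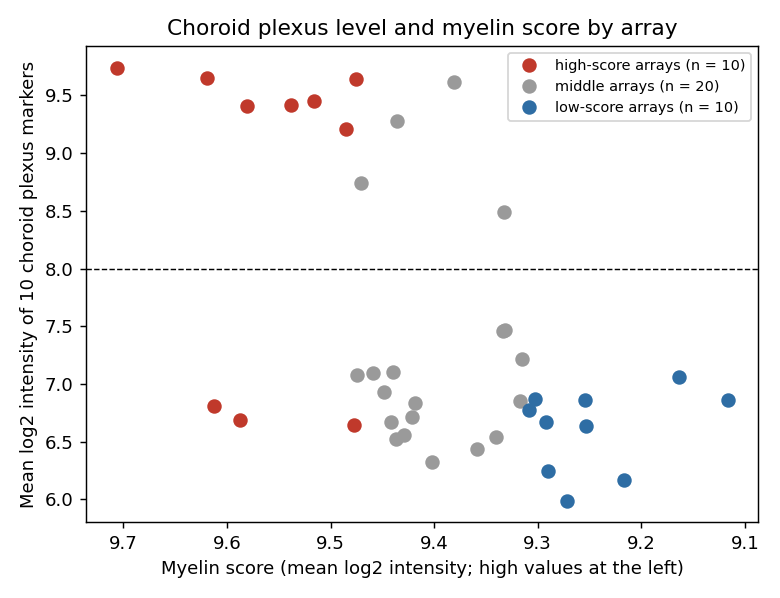
Mean log2 intensity of 10 choroid plexus markers against the myelin score, 1 point per array, with high scores at the left. The dashed line marks a level of 8. High-score arrays lie on either side of it, 7 above and 3 below, and the 10 low-score arrays lie below.

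Among proteins of the myelin sheath that the score did not use, 8 of 17 tested genes (20 on the list) were called higher and 0 lower, 16 lay above 0 and the median difference was 0.22. Over all genes 2.65% were called higher, 2.4% lower, and 48.2% lay above 0. Tmem88b, a transmembrane protein, was at 8.40 to 8.73 in the high-score arrays (median 8.56), against 7.93 to 8.35 in the low-score arrays (median 8.20). The ranges did not overlap, and the difference was 0.36 ± 0.055 (SE, 1.29-fold, limma adjusted p 0.00128). Cd82, a tetraspanin, was at 7.91 to 8.56 in the high-score arrays (median 8.39), against 7.62 to 8.00 in the low-score arrays (median 7.84), a difference of 0.49 ± 0.078 with an adjusted p of 0.00166 by limma. Gjb1, the gap junction protein connexin 32, was at 6.25 to 7.11 in the high-score arrays (median 6.65), against 5.84 to 6.59 in the low-score arrays (median 6.14), a difference of 0.48 ± 0.091 with an adjusted p of 0.00513 by limma. Pllp, the raft protein plasmolipin, was at 7.88 to 8.52 in the high-score arrays (median 8.32), against 7.68 to 8.24 in the low-score arrays (median 7.85), a difference of 0.42 ± 0.074 with an adjusted p of 0.00325 by limma. For Cd82, Gjb1 and Pllp most high-score arrays lay above all low-score arrays, 9, 6 and 7 of 10. The other called members were Cd9, Cnp, Gpr37 and Ninj2, with the calls on Cd9 and Ninj2 lost in 11 and 7 of 20 fits without 1 array.

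Cnp and Mbp show the limit of single probe sets. Cnp, an enzyme of non-compact myelin, was higher at each of 3 probe sets, by 0.28, 0.47 and 0.36. Mbp, the main basic protein of compact myelin, differed by 0.0081 at its brightest probe set (13.04 to 13.18 in the high-score arrays, against 13.03 to 13.19 in the low-score arrays). That probe set sits near the top of the intensity range. Of 8 Mbp probe sets tested, 1 was called, with a difference of 0.24 and a limma adjusted p of 0.00534, and 1 of the other 7 lay below 0, at -0.056.

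The list was also set against choroid plexus signal. With the covariate, the list had a median of 0.18, without the choroid-bright arrays 0.16 and as a slope over 29 arrays 0.18. Tmem88b differed by 0.39, 0.38 and 0.36 in the 3 fits, and the slope passed (limma adjusted p 0.00299). Pllp differed by 0.59, 0.57 and 0.44, and the covariate fit and the slope passed (limma adjusted p 0.0239 and 0.0188). Gjb1 differed by 0.50, 0.52 and 0.51. Cd82 differed by 0.19, 0.20 and 0.21, less than in the comparison of the ends, and Cd9, another tetraspanin, by 0.021, 0.023 and 0.065, against 0.33 (limma adjusted p 0.0347) between the ends. Choroid plexus level moved with both. With the score made without Opalin, the list had a median of 0.21 and Tmem88b, Cd82, Gjb1 and Pllp differed by 0.28, 0.39, 0.33 and 0.27, each with a limma adjusted p above 0.05 (0.172, 0.182, 0.370 and 0.326).

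Enzymes of myelin lipid synthesis were higher in part. Of 18 tested genes, 5 were called higher (Aspa, Elovl7, Fa2h, Gal3st1 and Ugt8a) and 0 lower, with a median of 0.12. The shares over all genes were 2.65% higher and 2.4% lower. Ugt8a, which makes galactosylceramide, was at 9.70 to 10.17 in the high-score arrays (median 9.96), against 9.41 to 9.84 in the low-score arrays (median 9.54), a difference of 0.37 ± 0.065 (limma adjusted p 0.00327). Aspa, which releases acetate from N-acetylaspartate in oligodendrocytes, was at 8.09 to 8.52 in the high-score arrays (median 8.35), against 7.46 to 8.15 in the low-score arrays (median 7.90), a difference of 0.47 ± 0.073 with an adjusted p of 0.00141 by limma. In either gene 9 of 10 high-score arrays lay above all low-score arrays. Fa2h, which hydroxylates the fatty acids of myelin lipids, differed by 0.27 (limma adjusted p 0.0320), a call lost in 7 of the 20 fits without 1 array, and the call on Gal3st1 was lost in 10. Elovl7, a fatty acid elongase, differed by 0.82 and was called at each of 6 probe sets. Its difference was 0.23, 0.19 and 0.31 in the covariate fit, the 3 against 10 arrays and the 29-array slope, against 0.47, 0.43 and 0.42 for Aspa and 0.37, 0.40 and 0.32 for Ugt8a. Choroid plexus level moved with Elovl7. Of the 19 tested cholesterol synthesis genes, 0 were called and 12 lay above 0, with a median of 0.039.

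The largest group of calls came from other genes of mature oligodendrocytes. Of 40 tested genes (45 on the list), 16 were called higher and 0 lower, against 2.65% and 2.4% of all genes. Of the 40, 38 lay above 0, against 48.2% of all genes, and the median was 0.19. It was 0.19 with the choroid covariate, 0.20 in the 3 against 10 arrays, 0.18 as a slope over 29 arrays and 0.15 with the score made without Opalin. Septin4, a filament-forming GTP-binding protein, was at 10.25 to 10.52 in the high-score arrays (median 10.30), against 9.74 to 10.16 in the low-score arrays (median 9.98). The ranges did not overlap, and the difference was 0.37 ± 0.053 (limma adjusted p 0.00124). Its second probe set differed by 0.33. Trim59, a tripartite motif protein, differed by 0.46 ± 0.067 (limma adjusted p 0.00128) and by 0.52, 0.52 and 0.37 in the 3 other fits. Serpinb1a, a serine protease inhibitor, differed by 0.59 (limma adjusted p 0.00545) and by 0.68, 0.72 and 0.56. Arsg, the lysosomal arylsulfatase G, differed by 0.66 (limma adjusted p 0.0320), with 6 of 10 high-score arrays above all low-score arrays, and by 0.46, 0.42 and 0.30. The call on Arsg was lost without 1 array in 9 of 20 cases.

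Regulators of the lineage gave 0 calls, which in a short list is near the share over all genes (2.65% higher and 2.4% lower). Of 12 tested oligodendrocyte transcription factors (15 on the list), 0 were called, 8 lay above 0 and the median was 0.077. Sox10, which activates myelin genes, was at 6.96 to 7.75 in the high-score arrays (median 7.42), against 6.79 to 7.58 in the low-score arrays (median 7.26), a difference of 0.21 ± 0.097 with a limma adjusted p of 0.220. Olig2, a specification factor of the lineage, differed by 0.21 (limma adjusted p 0.0810), Nkx2-2 by 0.24 (0.139) and Sox8 by 0.23 (0.176). In 7 of 10 high-score arrays Olig2 lay above all low-score arrays. With arrays blocked by spike-in control group, described below, Olig2 passed at 0.24 (limma adjusted p 0.0303). Olig2 passed in 2 of 47 alternative settings, Nkx2-2 in 2 of 46, and Sox10, Sox8 and Myrf in 0. Myrf, the regulator of myelination, differed by 0.0038 at its 1 tested probe set. The difference between these genes and the sheath genes was not tested.

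Of 11 tested genes of oligodendrocyte precursors (17 on the list), 1 was called higher and 2 lower, against 2.65% and 2.4% of all genes. The list median was -0.046. Vcan, the proteoglycan versican, was at 6.56 to 7.00 in the high-score arrays (median 6.79), against 6.92 to 7.31 in the low-score arrays (median 7.13), a difference of -0.31 ± 0.055 with a limma adjusted p of 0.00335. Its second probe set differed by -0.095 and was not called. Sox11, a factor of immature neurons and precursors, was at 8.42 to 8.90 in the high-score arrays (median 8.76), against 8.81 to 9.26 in the low-score arrays (median 9.03), a difference of -0.31 ± 0.070 with an adjusted p of 0.0136 by limma. Bcas1, which marks newly forming and mature oligodendrocytes, was higher by 0.24 (limma adjusted p 0.0125). The receptor Pdgfra, the defining marker of precursors, differed by 0.014, and Gpr17, a receptor of cells about to mature, by -0.22 (limma adjusted p 0.167). At the node of Ranvier and its flanks, 1 of 17 tested genes was called: Cntn2, a juxtaparanodal adhesion protein, differed by 0.26 (limma adjusted p 0.0443), a call lost in 14 of the 20 fits without 1 array. None of 11 tested neurofilament and axonal cytoskeleton genes was called. The counts of the node and cytoskeleton lists are near the share over all genes.

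**Figure D4:**
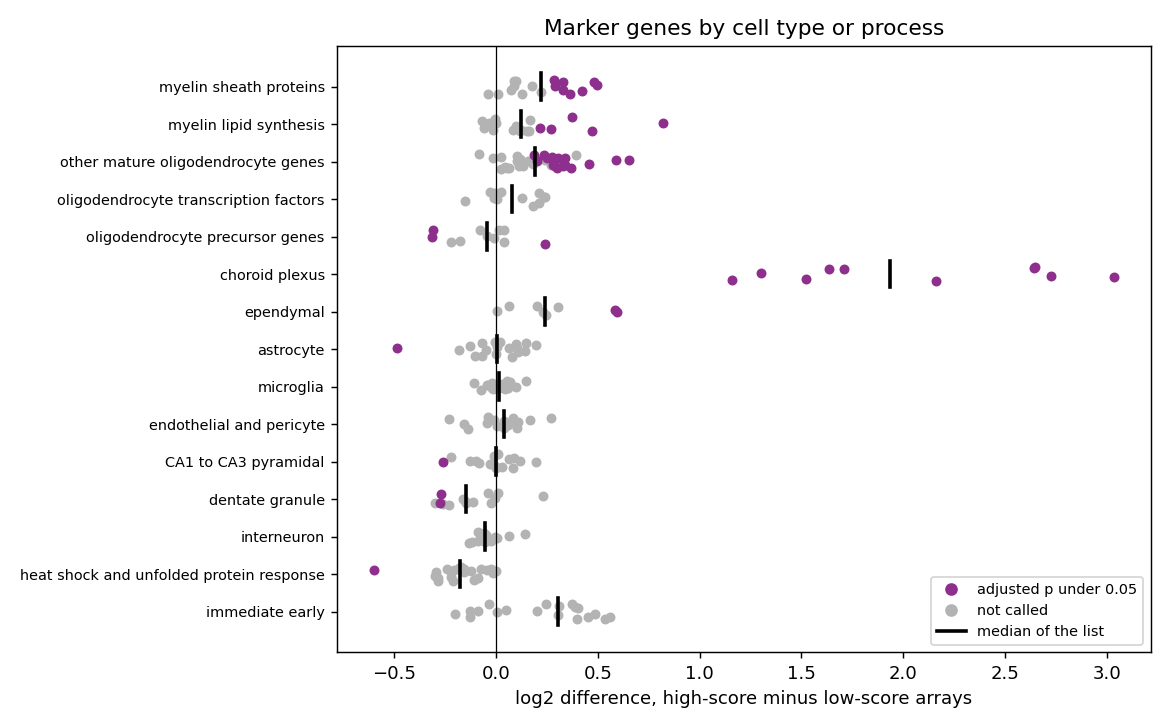
Log2 difference between high-score and low-score arrays for the tested members of 15 gene lists, 1 point per gene at its brightest probe set. Purple points passed an adjusted p of 0.05, grey points did not, and black bars are list medians. The 3 uppermost lists have medians of 0.22, 0.12 and 0.19, and the choroid plexus list one of 1.93.

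The largest differences between the ends were in choroid plexus genes. All 10 tested members of that list (15 on the list) were called higher, against 2.65% of all genes, with a median of 1.93. Ttr, the thyroid hormone carrier secreted by choroid plexus epithelium, was at 9.98 to 13.40 in the high-score arrays (median 13.25), against 7.72 to 11.61 in the low-score arrays (median 9.93). The ranges overlapped in the 3 choroid-dim arrays, and the mean difference was 2.65 ± 0.57 (SE, 6.26-fold, limma adjusted p 0.0103). Folr1, a folate receptor of the same epithelium, was at 5.63 to 9.45 in the high-score arrays (median 9.10), against 5.13 to 5.72 in the low-score arrays (median 5.38), a difference of 2.72 ± 0.48 with an adjusted p of 0.00360 by limma. Clic6, a chloride channel protein, differed by 3.03, Kcnj13, a potassium channel, by 2.64, Calml4 by 2.16 and Kl, the FGF23 co-receptor klotho, by 1.63. Ecrg4, a secreted peptide precursor outside the list, differed by 3.04 (limma adjusted p 0.00440).

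The choroid plexus list was near 0 in the other fits. Its median was -0.024 with the covariate, 0.062 in the 3 against 10 arrays and -0.048 as a slope over 29 arrays. All 3 values are bound by construction. The covariate is the mean of this list, and the other 2 fits keep only arrays whose mean of this list was low. In the 3 against 10 arrays, Ttr differed by 0.49 (p 0.479, unadjusted, limma), Folr1 by 0.27 and Ecrg4 by 0.24. Kcnj13 and Kl turned to -0.21 and -0.15 there. With the score made without Opalin, the choroid plexus list had a median of 1.26 with 0 members called, and 5 of 10 arrays at the upper end and 1 of 10 at the lower end were choroid-bright. Of the ependymal list, 2 of 8 tested genes were called higher, the cilium genes Rsph1 (0.59) and Dynlrb2 (0.58). Their differences were -0.026 and 0.040 in the 3 against 10 arrays. Of 10 tested meningeal fibroblast genes, 1 was called, Igf2, which also stands in the choroid plexus list. The meningeal list had a median of 0.035 between the ends. In the covariate fit, the 3 against 10 arrays and the 29-array slope it was -0.17, -0.095 and -0.22. Beside the ependymal and meningeal counts, 2.65% of all genes were called higher and 2.4% lower.

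**Figure D5:**
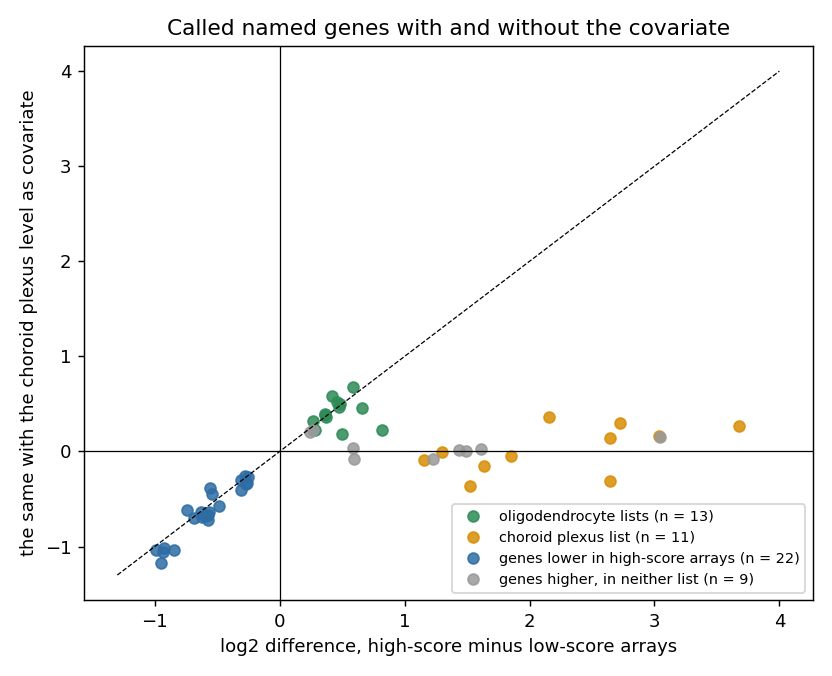
Log2 difference between high-score and low-score arrays (horizontal) against the same difference with the choroid plexus level as covariate (vertical), for named probe sets past an adjusted p of 0.05. Points on the dashed line keep their difference: the 13 of the oligodendrocyte lists and the 22 that were lower lie near it for the most part, and the 11 of the choroid plexus list lie near 0 on the vertical axis. The covariate is the mean of that list.

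Most of the genes with the largest decreases in the high-score arrays stood in none of the gene lists. Tsc22d3, a leucine zipper protein known as a glucocorticoid-induced transcript, was at 8.41 to 9.11 in the high-score arrays (median 8.62), against 8.87 to 10.08 in the low-score arrays (median 9.55). In 9 of 10 high-score arrays it lay below all low-score arrays, and the difference was -0.93 ± 0.11 (SE, limma adjusted p 0.000171). A second probe set differed by -0.71 and was called, and the remaining, dim one differed by -0.14 and was not. Plin4, a lipid droplet coat protein, was at 5.34 to 6.81 in the high-score arrays (median 5.56), against 5.94 to 7.18 in the low-score arrays (median 6.88), a difference of -0.99 ± 0.18 with an adjusted p of 0.00415 by limma. Zbtb16, a zinc finger transcription factor, was at 8.22 to 8.86 in the high-score arrays (median 8.50), against 8.74 to 9.42 in the low-score arrays (median 9.11), a difference of -0.54 ± 0.087 with an adjusted p of 0.00212 by limma.

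Cdkn1a, the cell cycle inhibitor p21, was at 6.26 to 6.92 in the high-score arrays (median 6.43), against 6.69 to 7.56 in the low-score arrays (median 6.88), a difference of -0.58 ± 0.11 with a limma adjusted p of 0.00539. Dio2, the deiodinase with which astrocytes activate thyroid hormone, was at 8.55 to 9.10 in the high-score arrays (median 8.74), against 9.04 to 10.00 in the low-score arrays (median 9.32), a difference of -0.62 ± 0.11 with an adjusted p of 0.00376 by limma. Each of 3 Dio2 probe sets was called. Etnppl, an ethanolamine phosphate lyase, differed by -0.93, the predicted gene Gm19439 by -0.84, Depp1 by -0.75, Inhba, the activin A subunit, by -0.69, Hif3a, a hypoxia-inducible factor subunit, by -0.63, Xdh, xanthine dehydrogenase, by -0.58, Samhd1, a nucleotide triphosphohydrolase, by -0.57 and Lurap1l by -0.56. Each of them passed, and the call on Depp1 was lost in 9 of the 20 fits without 1 array. Homer1, a postsynaptic scaffold with several transcripts, was called at 2 of 6 probe sets, which differed by -0.95 (limma adjusted p 0.00662) and -0.54, and the brightest differed by -0.13 (limma adjusted p 0.101).

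In the 3 against 10 choroid-dim arrays, Tsc22d3 differed by -1.01, Plin4 by -0.998, Zbtb16 by -0.44, Cdkn1a by -0.62 and Dio2 by -0.69, with limma unadjusted p from 2.27e-05 for Tsc22d3 to 0.00334 for Zbtb16 and none past the adjusted threshold. With the covariate, Tsc22d3 differed by -1.06 (limma adjusted p 0.0154). As a slope over 29 arrays, Cdkn1a passed at -0.70 (limma adjusted p 0.0358) and Tsc22d3 did not, at -0.76 (0.123). Plin4 had -0.57 as that slope, against -0.99 between the ends, and Xdh -0.35 against -0.58. With the score made without Opalin, the differences were smaller. Tsc22d3 differed by -0.46 (limma adjusted p 0.398), Plin4 by -0.38, Zbtb16 by -0.23, Cdkn1a by -0.33 and Dio2 by -0.30. That score kept 7 high-score and 6 low-score arrays and put 1 choroid-bright array at the lower end. The part of Opalin itself therefore cannot be told apart from the change of arrays.

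Chaperone and unfolded protein response genes lay below 0 together, with 1 past the test. Of 22 tested genes 1 was called lower and 0 higher, all 22 lay below 0, and the median was -0.18. Over all genes 2.4% were called lower and 48.2% lay above 0, so the count of calls is near the share over all genes. Without normalization between arrays 17 of 22 lay below 0, while the median of all genes moved to 0.086. Hspa1b, an inducible HSP70 whose sequence is nearly shared with Hspa1a, was at 9.02 to 9.84 in the high-score arrays (median 9.37), against 9.39 to 10.80 in the low-score arrays (median 9.80), a difference of -0.60 ± 0.17 with a limma adjusted p of 0.0418. The call was lost in 13 of the 20 fits without 1 array, and 2 further probe sets differed by -0.31 and -0.33 without passing. Manf, a secreted endoplasmic reticulum stress protein, differed by -0.29 and the small heat shock protein Hspb1 by -0.30. With the score made without Opalin, 19 of 22 lay below 0 and the median was -0.10. Of 19 immediate early genes, 14 lay above 0 with a median of 0.30 and 0 were called. Fos differed by 0.53 (limma adjusted p 0.445) and Npas4 by 0.49 (0.394). With the score made without Opalin the immediate early median was 0.066. As a slope on the score in the 20 middle arrays it was -0.22, with 1 of 19 genes above 0.

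In other cell types of the hippocampus most lists held 0 or 1 call, near the share over all genes (2.65% higher and 2.4% lower). The dentate granule cell list held 2. Of 19 tested astrocyte genes 1 was called, the gap junction protein Gjb6 (connexin 30). It was at 9.25 to 9.66 in the high-score arrays (median 9.39), against 9.49 to 10.10 in the low-score arrays (median 9.94), a difference of -0.48 ± 0.067 with a limma adjusted p of 0.000894. The astrocyte list had a median of 0.0028, Gfap differed by 0.15, Aqp4 by 0.0028 and Slc4a4 by -0.18 (limma adjusted p 0.0628). None of 19 microglial genes (Cx3cr1, 0.045) and none of 16 endothelial and pericyte genes (Cldn5, 0.080) was called. Of 14 tested dentate granule cell genes 12 lay below 0, with a median of -0.15, and 2 were called lower, Npnt (-0.27) and Rfx3 (-0.28), calls lost in 3 and 15 of the 20 fits without 1 array. Prox1, the defining factor of these cells, differed by -0.11 (limma adjusted p 0.477). With the score made without Opalin, 8 of 14 lay below 0 and the median was -0.048. Of 16 pyramidal cell genes 1 was called, Amigo2 (-0.26), and of 16 neocortical layer genes 1, Bcl6 (-0.25), calls lost in 15 and 11 of those 20 fits. The neuronal genes Slc17a7, Camk2a and Gad1 differed by -0.089, -0.026 and 0.0030. None was called among 15 interneuron, 13 thalamic and habenular, 8 striatal, 26 excitatory synapse, 23 ribosomal protein and 35 respiratory chain genes, or for Zic1, the 1 tested gene of septal and fimbria neighbours.

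The 20 middle arrays, which the comparison of the ends did not use, were fitted with a slope on the score. Their scores spanned only 9.32 to 9.47, less than the gap of 0.31 between the ends. Slopes scaled to that gap are therefore extrapolated and imprecise, and the absence of a call does not show that a gene stayed flat. Of 22509 probe sets 0 (0%) passed, with 1099 at an unadjusted p under 0.05 and a smallest limma adjusted p of 0.389. Of the 949 probe sets called between the ends, 644 had a slope of the same sign. The share with the same sign over all probe sets was not computed, so this count has no background to be read against. Scaled to the gap between the ends, Pllp had a slope of 0.44 (limma unadjusted p 0.0280), Gjb1 of 0.63 (0.0425), Cnp of 0.47 (0.0288) and Tmem88b of 0.28 (0.0607). Septin4 had a slope of 0.18 (0.256), Tsc22d3 of -0.42 (0.492), Dio2 of -0.31 (0.408) and Ttr of 0.18 (0.922). The slope medians were 0.13 in the sheath list, 0.16 in the other mature oligodendrocyte genes, 0.27 in the choroid plexus list and -0.010 over all genes. Some lists changed sign, such as the dentate granule list (0.15, against -0.15 between the ends) and the immediate early list (-0.22, against 0.30). The meningeal fibroblast list moved further, to a median of -0.79, against 0.035 between the ends. There 0 of 10 genes lay above 0 and 6 had a limma unadjusted p under 0.05. Zic1 had a slope of -1.33 (limma unadjusted p 0.00317), against 0.44 between the ends.

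Cognition classes came from the labels and had no part in the choice of arrays. The high class was at the lower end more often than at the upper: 0 of its 5 arrays were high-score and 4 were low-score. The medium class had 3 and 3 of 11 ranked arrays at the ends, the low class 3 and 2 of 8, the inconsistent arrays 4 and 1 of 14, and the incomplete ones 0 and 0 of 2. The score was 9.25 to 9.44 in the high class (median 9.29), 9.12 to 9.62 in the medium class (median 9.40) and 9.22 to 9.71 in the low class (median 9.39). The ranges overlapped.

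In the fit of the 24 high, medium and low arrays, none of the 6 score genes passed in any contrast. Across all 22519 probe sets, 2 (0.00888%) passed in high minus low, 8 (0.0355%) in high minus medium and 0 (0%) in medium minus low. Opalin was at 7.45 to 7.87 in the high class (median 7.78), against 7.48 to 8.52 in the low class (median 8.16), a difference of -0.38 ± 0.17 (SE, limma unadjusted p 0.0328, adjusted p 0.457). Against the medium class, at 7.34 to 8.46 (median 7.99), it differed by -0.28 ± 0.16 (limma adjusted p 0.458). The other 5 score genes differed by -0.11 to 0.0023 between the high and low classes and by -0.12 to 0.073 between the high and medium classes. Choroid-bright arrays were 0 of 5 in the high class, 4 of 11 in the medium class and 3 of 8 in the low class. The standard errors for the 6 genes in high minus low ran between 0.084 and 0.17, so differences of the size seen for Mag or Mobp could not be told from 0 with these numbers of mice.

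Measures of array and RNA quality overlapped between the ends. The median intensity before normalization was 29.9 to 53.4 in the high-score arrays (median 41.7), against 22.4 to 47.5 in the low-score arrays (median 37.7). The high-score arrays were brighter on average: without normalization 9102 of 11212 genes lay above 0. The difference between the 3′ and 5′ control probe sets was 0.46 to 0.65 for Actb in the high-score arrays, against 0.50 to 0.60 in the low-score arrays. For Gapdh it was -0.54 to -0.45 in the high-score arrays, against -0.54 to -0.43 in the low-score arrays. Spike-in control probe sets split the arrays into 3 groups, a split made after the values were seen. The high-score arrays were spread over them as 2, 7 and 1, and the low-score arrays as 1, 7 and 2. The 3 choroid-dim high-score arrays all lay in the group of 7. With this group as a block, 577 probe sets were higher and 556 lower. Within the group of 7 against 7 arrays, Tmem88b differed by 0.42 and Tsc22d3 by -0.91, both past the limma threshold, and Ttr by 2.37 (limma adjusted p 0.0908). In the groups of 2 against 1 and 1 against 2 arrays, Tmem88b differed by 0.15 and 0.23, Tsc22d3 by -1.08 and -0.68 and Ttr by 5.11 and 2.32. Pairwise correlations of the 41 arrays ran from 0.971 upwards, with a median of 0.987.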

How the data were processed

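RNA from 41 hippocampi was measured on Affymetrix mouse arrays. As deposited by the authors, the values span 0.0112 to 13549 and so are intensities on a linear scale, and array medians lay between 22.4 and 55.2. Partek and RMA are named in the submitters' processing notes, with no version or role given. Log2 values had been foreseen in the planned test. The 41 arrays were therefore quantile-normalized and transformed to log2(intensity + 16), which understates changes of dim genes. Of 45101 probe sets, 64 were controls. The 22519 at or above the median level were fitted with limma 3.58.1 (R 4.3.3) and Benjamini-Hochberg adjustment at 0.05, and the 10 of the score genes were left out of counts. Per the platform annotation, 34945 probe sets had 1 symbol, 932 several (not named) and 9160 none.

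The array choice, the 27 gene lists and the tests were chosen with earlier results of these data known. Named genes were the 15 higher and 15 lower of largest difference, each at its probe set of smallest p, up to 4 members per list and 16 fixed genes, of which 1 is not reported here, the latter 2 kinds at the brightest probe set. Not all of them are described. The labels do not say whether mice shared a litter or cage. The steps were tested on simulated data. Replicate numbers did not pair the arrays. Alternatives covered the filter, normalization, offset, array choice, variance model, weights, blocks, covariate and single arrays. The number of arrays limits the precision.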

Additional observations from a re-analysis of the deposited data

Results flagged for a closer look

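In 178 groups of 5 to 10 arrays examined, 19 held an array whose distance to its nearest neighbour was large for the range of its group, and chance gives about 1 in 20. Values are log2(intensity + 16).

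Several lay in low-cognition replicates 2 and 5, both low-score arrays. Among the low-score arrays, replicate 5 was highest in Slc17a7, the vesicular glutamate transporter of excitatory neurons, at 10.83 (next 10.02), in Prox1 at 7.82 (next 7.49) and in Slc4a4, a bicarbonate transporter of astrocytes, at 10.35 (next 10.01), and lowest in Calml4 at 4.76 (next 5.40) and Gal3st1 at 6.27 (next 6.56). Replicate 2 was lowest in Gjb6 at 9.49 (next 9.79), Xdh at 5.54 (next 6.06) and Kl at 6.22 (next 6.63). High replicate 2 was lowest in Etnppl at 5.11 (next 6.07) and in Bcas1 at 10.64 (next 10.88), and high replicate 4 was highest in Myrf at 8.69 (next 7.96).

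Among the high-score arrays, medium replicate 6, the last inside the upper border, was highest in Tsc22d3 at 9.11 (next 8.74) and Plin4 at 6.81 (next 6.10). Medium replicate 2 was highest in Cdkn1a at 6.92 (next 6.56). Inconsistent replicate 12 was highest in Etnppl at 5.93 (next 5.53) and Myrf at 8.33 (next 7.90). Inconsistent replicate 9 was lowest in Pdgfra at 8.34 (next 8.66), and low replicate 7 was highest in Mobp at 12.14 (next 11.95). In the high cognition class, replicate 1 was lowest in Opalin at 7.45 (next 7.78). Without it, Opalin differed from the low class by -0.31.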

How the results depend on the processing

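The comparison of the ends gave 489 higher and 460 lower probe sets, and the counts moved by more than 1.5 times under several settings. Without a filter 247 were lower, and over the brightest 25% of probe sets 295 of fewer tested probe sets were higher. Without normalization between arrays 161 were higher and 9 lower, and with arrays centred on their medians 298 and 165. With 7 arrays per end 196 were higher and 118 lower, and with 13 per end 266 were lower. With cognition class as a block 307 were higher and 157 lower. Within the spike-in groups 177 and 68, 138 and 208, and 56 and 2 were called on 3, 14 and 3 arrays. With the choroid plexus level as covariate 3 were higher and 8 lower, without choroid-bright arrays 0 and 0, and as a slope over 29 choroid-dim arrays, an alternative chosen after seeing the data, 18 and 11. A score without Mag gave 254 and 245, and a score without Opalin 5 and 0. Leaving out 1 array gave 305 to 543 higher and 279 to 543 lower. Settings with fewer arrays or probe sets have less power by construction, and the cause was otherwise not tested. Of 52 genes past the threshold whose values were recomputed, 0 kept their call with a score without Opalin or without choroid-bright arrays, 3 with the covariate, 7 as the 29-array slope and 25 without normalization. Serpinb1a, Bcl6, Sox11, Hspa1b and Amigo2 changed sign within a spike-in group of 3 arrays, to -0.043 (Serpinb1a), 0.15 (Bcl6), 0.033 (Sox11), 0.10 (Hspa1b) and 0.025 (Amigo2). Kcnj13 turned to -0.31, -0.21 and -0.14, Kl to -0.16, -0.15 and -0.023, and Rsph1 to -0.077, -0.026 and -0.016 with the covariate, without choroid-bright arrays and as the 29-array slope. Igf2 turned to -0.086 with the covariate and -0.084 as that slope. The middle-array slope called 0 probe sets with the spike-in group as a block or the choroid level as covariate. In the cognition classes 0 of 6 score genes were called in each contrast, also with the replicate number as a block, where 0 were called, with inconsistent sample 2 moved to the medium class (0) and without each high array (0). Same-numbered arrays of different classes correlated by -0.19 to 0.13 in their deviations (18 pairs, median -0.0080), so the number is not a pairing.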

Other observations

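The genes named here lie outside the naming rule and were chosen after their values were seen. With the choroid plexus level as covariate, the 11 probe sets called included Gpr62, an orphan receptor on the list of other mature oligodendrocyte genes (0.50, limma adjusted p 0.0363, against 0.28 and 0.0320 between the ends), Lrrc8c, a subunit of volume-regulated anion channels (-0.68, 0.0154), Gpt2, a mitochondrial alanine transaminase (-0.50, 0.0410), and Ripply2 (0.62, 0.0239). As a slope over the 29 choroid-dim arrays, Gpr62 had 0.50 (limma adjusted p 0.00299) and Ppp1r14a, an inhibitor of myosin phosphatase, 0.45 (0.0265), while Txnip, a thioredoxin-binding protein, had -0.43 (0.0256), Vcl, the adhesion protein vinculin, -0.33 (0.0403) and Ocln, the tight junction protein occludin, -0.35 (0.0188). Ocln differed by -0.025 between the ends.

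With the score made without Opalin, the 5 probe sets called higher were 1 each of Gjb1 (0.38, limma adjusted p 0.0172), Prps2, a phosphoribosyl pyrophosphate synthetase (0.47, 0.0172), Mbp (0.24, 0.0475) and Ptprd, a receptor tyrosine phosphatase (0.33, 0.0475), and 1 without a symbol (0.41, 0.0172).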
